A study of Mus musculus with 6 samples.

Results

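The genes described here are 8 transcripts by which astrocytes are recognised in brain tissue, 2 of them encoding connexins: Gja1, Gjb6, Ntsr2, Aqp4, Gfap, S100b, Aldoc and Aldh1l1. They were chosen by name, and each was found as 1 row among the 26264 gene symbols of every library. All 8 passed the filter on low counts, which 14739 genes passed in all. The libraries were made from male mice by dissecting the basolateral amygdala, a region central to fear and anxiety, in 3 unstressed controls and 3 mice under chronic restraint stress, in which the animal is repeatedly held immobile. Each library is a separate biological replicate of total RNA depleted of ribosomal RNA, and neither strain, age nor the length of the stress is given in the sources used here.

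Astrocytes are the glial cells that clear transmitter from synapses, buffer potassium, supply neurons with metabolites and cover blood vessels with their endfeet. They are joined into a network by gap junctions, channels made of connexin proteins through which ions and small metabolites pass from cell to cell. In the adult brain the gap junctions between astrocytes are built mainly from connexin Cx43, encoded by Gja1, and connexin Cx30, encoded by Gjb6. Oligodendrocytes use other connexins, among them those encoded by Gjb1 and Gjc3, and the product of Gjb1 pairs with Cx30 of astrocytes. In libraries of whole tissue, fewer astrocytes and less RNA per astrocyte cannot be told apart.

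The stretches before the start sites of the 2 connexin genes are shown because the same cells use both genes while their values differed in spread and size. Both are the 250 bases before the start that RefSeq gives on GRCm38.p6, a build other than the mm39 of the counts, and capitals mark matches to the motifs searched. That of Gja1 lies on the plus strand at chr10:56377050-56377299 and that of Gjb6 on the minus strand at chr14:57133612-57133861.
Gja1: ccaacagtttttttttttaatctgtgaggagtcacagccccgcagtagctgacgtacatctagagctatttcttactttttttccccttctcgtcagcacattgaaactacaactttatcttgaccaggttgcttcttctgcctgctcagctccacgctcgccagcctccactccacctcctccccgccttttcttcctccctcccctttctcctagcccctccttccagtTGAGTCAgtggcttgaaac
Gjb6: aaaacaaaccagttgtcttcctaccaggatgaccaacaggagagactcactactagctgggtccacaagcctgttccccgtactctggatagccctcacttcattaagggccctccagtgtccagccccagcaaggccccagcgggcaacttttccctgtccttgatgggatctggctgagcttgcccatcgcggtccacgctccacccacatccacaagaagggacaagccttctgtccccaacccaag
The capitals in Gja1 are an AP-1 motif (TGANTCA) that starts 19 bases before the RefSeq start site, and 6.75% of 32851 RefSeq promoters of this length hold that motif on either strand. The last bases of this RefSeq entry were found in no GENCODE M21 transcript of Gja1, while those of the other genes' entries were found. The distance therefore holds for the RefSeq start alone. The Gjb6 stretch held no match to any of the 6 motifs searched on both strands. The other 5 were the glucocorticoid receptor hexamer AGAACA, the STAT motif TTCCNGGAA, the TATA box TATAAA, the CCAAT box CCAAT and the GC box GGGCGG. RefSeq entries were matched for 7 of the 8 genes, Aqp4 excepted, and gave 8 promoters because Aldoc has 2. None of these 8 held the glucocorticoid receptor hexamer or the TATA box, which 16.1% and 12.4% of all promoters held. The STAT motif was found at 1 Aldoc start (0.913% of all promoters), the CCAAT box at Aldh1l1 and S100b (33.8%) and the GC box at Aldh1l1 and Aldoc (32.7%).

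Controls 1 to 3 and stress libraries 1 to 3 held between 9859449 and 10233706 counts in genes. The 8 genes were covered by 222 to 6941 counts per library, Gjb6 being the lowest and Aldoc the highest, so that counting error alone was at most 6.71% of a value for Gjb6 and 1.26% for Aldoc. The libraries differed in genes of neighbouring tissue. The choroid plexus gene Ttr was measured at 2128, 3777 and 18.9 CPM in the controls, in the order of their numbers, and at 2.87, 5553 and 8.34 CPM in the stress libraries, where CPM is the count scaled to a common library size. Markers of the striatum and central amygdala were lowest in stress 1.

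Of the 8 genes, 7 had a lower mean under stress and 1, Aldoc, a higher one. The fitted ratio of stress to control ran from 0.840 for Gja1 to 1.02 for Aldoc. None passed the threshold of 0.05 for the adjusted p of edgeR's quasi-likelihood test (0 of 8), nor did any other gene (0% of 14739, smallest adjusted p 0.997). Their median log2 fold change was -0.20, beside -0.0044 over all tested genes, and 51.6% of all tested genes were lower under stress. At an unadjusted p under 0.05 there were 2 of the 8, Gja1 and Ntsr2, both lower, beside 2.04% of all tested genes in that direction and 1.33% in the other. Only Gja1 had groups that did not overlap, with all stress values lower, a pattern seen in 4.48% of all tested genes, and 3.8% had all stress values higher.

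**Figure D1:**
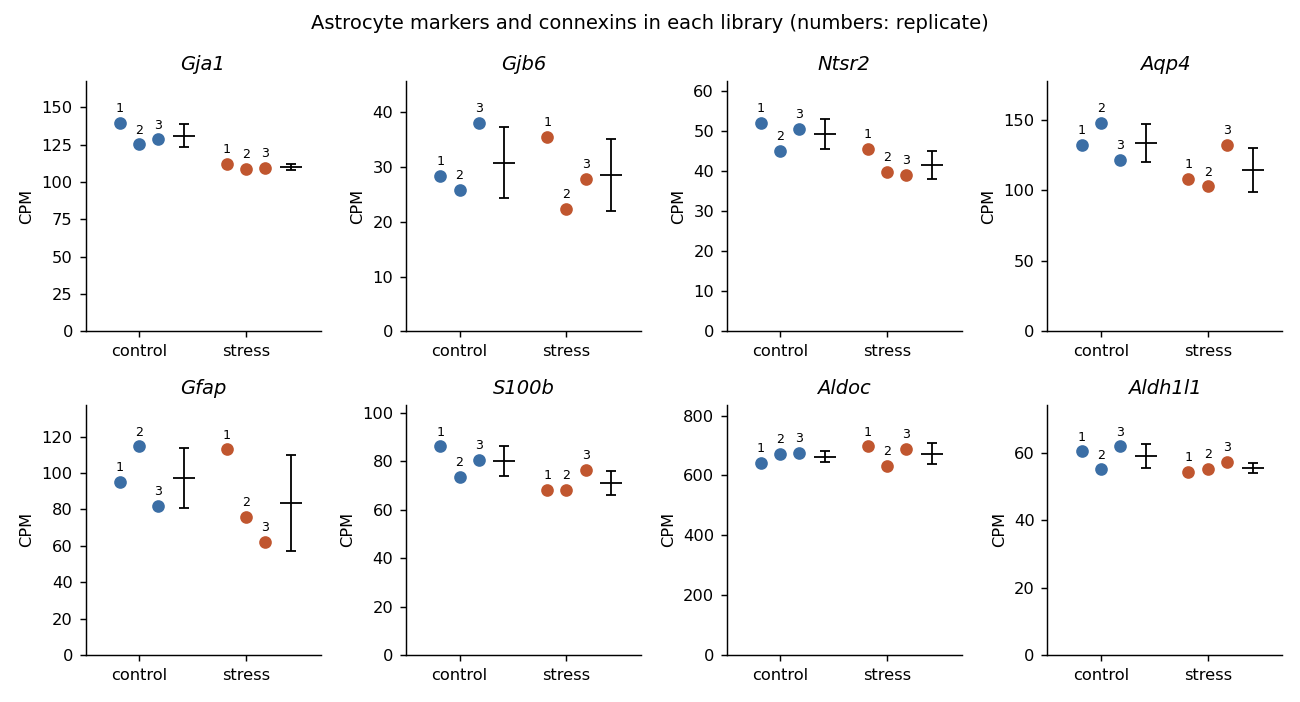
Level of each gene in CPM (vertical axis, linear and starting at 0) in the 3 control (blue) and 3 stress (orange) libraries; numbers give the replicate, and the black bar beside each group its mean and SD. The stress values of Gja1 lie at 109 to 112 CPM, all below the controls at 125 to 140 CPM, while the groups overlap for the other 7 genes.

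Gja1, the main gap junction gene of astrocytes, was measured at 140, 125 and 128 CPM in the controls and at 112, 109 and 109 CPM in the stress libraries, both by number. The lowest control was above the highest stress library, and the stress libraries lay closer together than the controls. The means were 131 ± 7.62 and 110 ± 1.78 CPM (SD, n = 3 each). The log2 fold change was -0.25 ± 0.06 (SE), with a 95% interval from -0.40 to -0.10. Its unadjusted rank was 20 among 14739 genes, and it did not pass after adjustment (adjusted p = 0.997, edgeR). With 1 library left out at a time its log2 fold change stayed between -0.28 and -0.20.

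Gjb6, the second astrocyte connexin gene, was measured at 28.3, 25.9 and 38.1 CPM in control mice and at 35.5, 22.4 and 27.9 CPM in stressed mice. Control 3 and stress 1 were the 2 highest libraries and stress 2 the lowest, so the groups overlapped throughout. The log2 fold change was -0.11 ± 0.21 (SE), with an interval from -0.60 to 0.39, which contains the estimate for Gja1. It was 0.077 without control 3 and 0.048 without stress 2, so its direction rested on single libraries. Stress 2, the library with the least Gjb6, had the most Ttr, and control 3 and stress 1, with the most Gjb6, were among the 3 libraries at or under 18.9 CPM of Ttr. The part of neighbouring tissue in this was not tested.

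Ntsr2, a neurotensin receptor that in the brain is found largely on astrocytes, was measured at 52.1, 45.0 and 50.6 CPM across the controls and at 45.5, 39.9 and 39.0 CPM across the stress libraries. Stress 1 lay just above control 2, and this was the only overlap. The means were 49.2 ± 3.74 and 41.5 ± 3.51 CPM, a log2 fold change of -0.25 ± 0.09 (SE) with an interval from -0.46 to -0.04. It ranked 210 by unadjusted p and did not pass (adjusted p = 0.997, edgeR). Without any 1 library the log2 fold change lay between -0.32 and -0.20.

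Aqp4, the water channel concentrated in astrocyte endfeet, was measured at 132, 148 and 121 CPM in control mice and at 108, 103 and 132 CPM in stressed mice. Stress 1 and stress 2 were below every control, while stress 3 was level with control 1. The log2 fold change was -0.23 ± 0.11 (SE), with an interval from -0.49 to 0.03 (adjusted p = 0.997, edgeR). Leaving out stress 3 brought it to -0.34, and leaving out control 2 to -0.14. Without control 1, control 2 and stress 2, the libraries with most Ttr, it was -0.01, with control 3 as the only control.

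Gfap, the intermediate filament gene that is used as a sign of astrocyte reactivity, had the widest spread of the 8. It was measured at 95.02, 115 and 81.8 CPM in control mice and at 113, 75.7 and 62.1 CPM in stressed mice. The highest library held 1.85 times the lowest, and stress 1 was level with the highest control while stress 2 and stress 3 were below all controls. The log2 fold change was -0.22 ± 0.24 (SE), with an interval from -0.81 to 0.38, which spans ratios from 0.568 to 1.30. It was -0.50 without stress 1 and -0.04 without stress 3. It turned to 0.10 without the 3 libraries with most Ttr.

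S100b, which encodes a calcium-binding protein made by astrocytes and also by some oligodendrocytes, was measured at 86.2, 73.6 and 80.4 CPM in control mice and at 68.3, 68.1 and 76.6 CPM in stressed mice. Only stress 3 reached into the control range. The log2 fold change was -0.17 ± 0.08 (SE), with an interval from -0.36 to 0.02 (adjusted p = 0.997, edgeR), and it was -0.11 without control 1. Oligodendrocyte markers were lower as well, at 16 of 16 tested, with summed levels of 2371 to 3749 CPM in control mice and 1861 to 2659 CPM in stressed mice. Their median log2 fold change of -0.39 was -0.14 without control 1, where 15 of 16 were lower. Their part in the S100b value was not tested.

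The 2 metabolic markers differed least. Aldoc, the brain form of the glycolytic enzyme aldolase, was measured at 642, 672 and 675 CPM in control mice and at 697, 631 and 689 CPM in stressed mice. Its highest and lowest libraries were both from stressed mice. The log2 fold change was 0.02 ± 0.07 (SE), with an interval from -0.13 to 0.17, and it was -0.0046 without stress 1. Aldh1l1, a cytosolic folate enzyme that releases carbon dioxide from formyl-tetrahydrofolate, was measured at 60.5, 55.2 and 62.0 CPM in control mice and at 54.5, 55.3 and 57.3 CPM in stressed mice. Control 2 lay among the stress libraries. Its log2 fold change was -0.09 ± 0.07 (SE), with an interval from -0.25 to 0.07. It was -0.054 without control 3 and -0.15 without the 3 libraries with most Ttr. The differences between Gja1 and these genes were not tested.

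**Figure D2:**
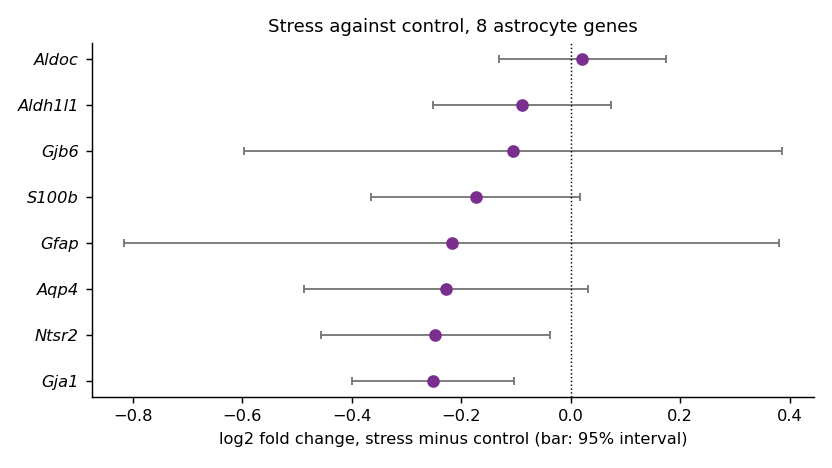
Fitted log2 fold change, stress minus control, for each of the 8 genes (points) with its 95% interval (bars); the dotted line marks no difference. The intervals of Gja1 and Ntsr2 lie below 0 and those of the other 6 genes include 0; no gene passed the adjusted threshold.

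Levels were compared between genes only per length, as CPM divided by the kilobases of the longest principal transcript in GENCODE M21. On this scale Aldoc stood first at 238 ± 6.51 in controls and 241 ± 12.9 under stress (SD, n = 3 each), clear of S100b at 54.0 ± 4.24 and 47.8 ± 3.27. S100b was above Gja1 in each of the libraries and their ranges over all 6 did not overlap (45.9 to 58.1 against 34.2 to 43.9). Gja1, Gfap, Ntsr2 and Aqp4 followed, and neighbours in that order overlapped in range. Gjb6 at 14.6 ± 3.07 and 13.6 ± 3.14 and Aldh1l1 at 14.2 ± 0.863 and 13.3 ± 0.345 were lowest and overlapped each other. Per length, the controls therefore held 41.2 ± 2.39 CPM per kilobase of Gja1 beside 14.6 ± 3.07 of Gjb6.

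The libraries did not move all 8 genes together. Stress 2 was the lowest of the 6 libraries for 5 genes, stress 3 for 2 and stress 1 for 1, and no control library was lowest for any. Averaged over the 8 genes, log2 levels relative to the control mean were 0.02, -0.03 and 0.01 across the 3 controls and -0.06, -0.26 and -0.18 across the 3 stress libraries. In stress 1, Gfap and Gjb6 were each 0.23 above their control means on this log2 scale while Aqp4 was 0.30 below (-0.30), so the small average in that library hid opposite values.

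A second list of 33 astrocyte markers was used to ask whether other transcripts of the same cells were also lower. Of these, 28 were lower and 5 higher under stress (median log2 fold change -0.05), and 0 passed the adjusted threshold. This count rested in part on single libraries: with 1 library left out, 19 to 28 of the 33 were lower and the median ran from -0.11 without control 3 to -0.0094 without control 1. Without the 3 libraries with most Ttr, 12 were lower and 21 higher, with a median of 0.035. The glutamate transporter genes were close to level, with Slc1a2 at 4617 ± 322 and 4471 ± 356 CPM (log2 fold change -0.05 ± 0.09, SE) and Slc1a3 at 591 ± 14.0 and 577 ± 19.5 CPM (-0.03 ± 0.06). Glul, which makes glutamine from glutamate, was at -0.03 ± 0.07, and the transcription factor gene Sox9 at -0.25 ± 0.19. Among those with the smallest unadjusted p were Slc25a18, a mitochondrial glutamate carrier gene, and the protease gene Htra1. Slc25a18 was higher under stress, at 31.7, 35.8 and 33.4 CPM in control mice and 49.1, 42.3 and 36.3 CPM in stressed mice. Htra1 was lower, with a log2 fold change of -0.22 ± 0.08 (SE).

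Each of the 8 genes was then set against the mean log2 CPM of those 33 markers within the same library, which shows how it stood among other transcripts of astrocytes. Relative to them Gja1 stood at 0.01, -0.08 and 0.07 in controls and at -0.26, -0.22 and -0.11 under stress, a mean difference of -0.20 on the log2 scale. Ntsr2 stood at 0.01, -0.14 and 0.14 in controls and at -0.15, -0.25 and -0.18 under stress, a mean difference of -0.19. For these 2 of the 8 genes the stress values were below every control, by only 0.024 for Gja1 and 0.0080 for Ntsr2 between the nearest libraries. On this scale 1.67% of all tested genes were below every control and 4.45% above. Gjb6, Aqp4, Gfap, S100b, Aldoc and Aldh1l1 overlapped, with mean differences of -0.06, -0.18, -0.20, -0.12, 0.07 and -0.03. No test was made of these differences, and 3 against 3 libraries cannot give a two-sided exact p below 0.1.

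**Figure D3:**
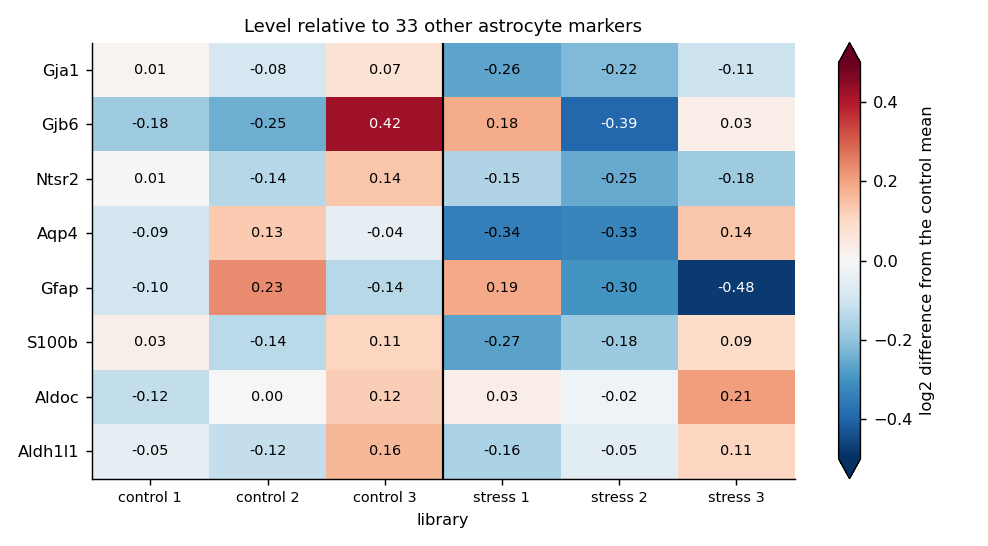
Log2 level of each gene minus the mean of 33 other astrocyte markers in the same library, relative to the mean of the controls (colour and printed value; libraries in columns, the line parts control from stress). Gja1 and Ntsr2 are below 0 in all 3 stress libraries and below each control. Gjb6, Gfap and Aldoc are above 0 in stress 1, and Gjb6, Aqp4, S100b, Aldoc and Aldh1l1 are above 0 in stress 3.

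Among the other connexins and the related pannexins, 11 of 21 genes passed the filter, of which 6 were lower and 5 higher under stress (median log2 fold change -0.39), and 0 passed the adjusted threshold. That median was the value of Gjd3, a gene with 15 to 29 counts per library. The next value above it was 0.00, for Panx2, which was counted as higher. With edgeR's likelihood ratio test 7 were lower and 4 higher. The lower ones included the oligodendrocyte connexin genes Gjb1 and Gjc3. Gjb1 had a log2 fold change of -0.40 ± 0.25 (SE) and Gjc3 one of -0.39 ± 0.20, and for Gjc3 control 1 stood highest at 39.8 CPM, the library in which oligodendrocyte markers were also highest. Gjb1 was also highest in control 1, at 6.96 CPM. Beyond control 1 Gjc3 did not follow the summed oligodendrocyte level. That sum was lowest in stress 1 (1861 CPM), where Gjc3 was at 25.2 CPM, above its 23.9 CPM in stress 2 (sum 2659 CPM). Gjb1 and Gjc3 are themselves members of that list.

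Gjb2, which encodes connexin Cx26 of astrocytes and meningeal cells, was measured at 3.08, 4.85 and 8.07 CPM in control mice and 3.29, 2.42 and 3.67 CPM in stressed mice (log2 fold change -0.76 ± 0.36, SE). Control 1 lay within the stress range. Meningeal fibroblast markers were lower in 7 of 8 genes (median log2 fold change -0.53). Their summed levels were 90.2 to 139 CPM in control mice and 51.5 to 139 CPM in stressed mice. These sums hold Igf2, at 9.86 to 95.4 CPM and high in the libraries with most Ttr, and Dcn, at 95.4 CPM in stress 1. The part of the meningeal markers in the Gjb2 value was not tested. The neuronal connexin gene Gjd2 was at -0.47 ± 0.23. The pannexin genes were level, with Panx1 at 0.02 ± 0.11 and Panx2 at 0.00 ± 0.16. Without control 1 the median of this list was -0.14. Leaving out control 3 gave -0.21 and leaving out stress 2 or stress 3 gave -0.27. Gja10, Gjb5 and Panx3 had no count in any library.

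**Figure D4:**
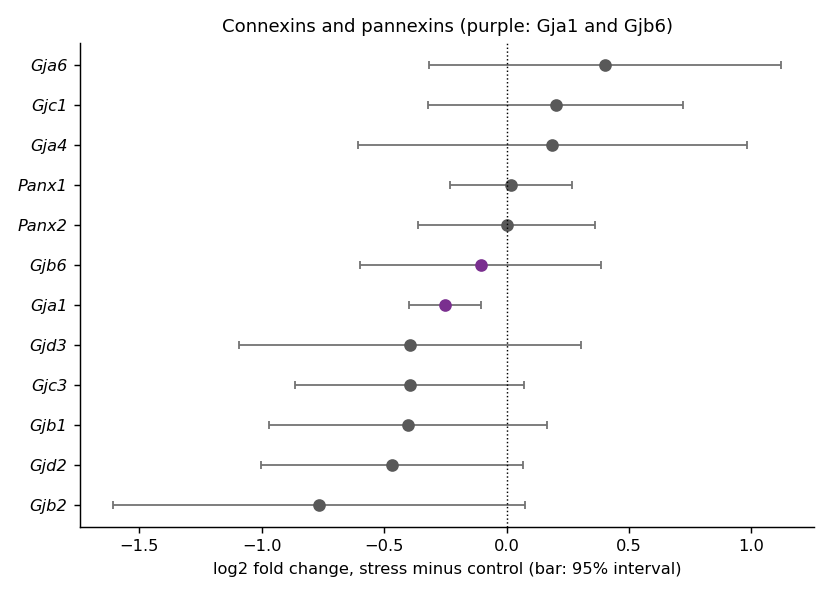
Fitted log2 fold change, stress minus control, with its 95% interval for Gja1 and Gjb6 (purple) and 10 other connexin and pannexin genes that passed the filter (grey). The interval of Gja1 is the narrowest and lies below 0, and those of Gjb6 and the 10 other genes shown include 0.

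Genes around the function of each marker were read in the same fit. Of 12 genes of the endfoot and its dystrophin complex, which anchors Aqp4, 8 were lower and 4 higher, with a median of -0.04 (0.029 without stress 3) and 0 past the threshold. The potassium channel gene Kcnj10 was at 49.8, 43.0 and 49.2 CPM in control mice and 46.3, 33.1 and 30.3 CPM in stressed mice (log2 fold change -0.37 ± 0.16, SE). Hepacam, an astrocyte adhesion gene whose product binds Mlc1, was at -0.20 ± 0.09, and the dystroglycan gene Dag1 at -0.13 ± 0.06 with groups apart. Of the other aquaporins 3 of 10 were tested. Aqp1 ran from 0.298 to 33.1 CPM, high in the libraries with most Ttr, and is itself a gene of the choroid plexus. Aqp9 and Aqp11 were at -0.22 ± 0.32 and 0.12 ± 0.17.

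Of 26 genes that mark reactive astrocytes 19 were tested, 13 lower and 6 higher under stress, with a median of -0.14 and 0 past the threshold. Leaving out control 2 or stress 1 moved it to -0.063 or -0.078, and leaving out control 3 to -0.23. Lcn2, Steap4, Timp1, C3, Cxcl10, Ptx3 and Slc10a6 did not pass the filter on low counts. The filament gene Vim, expressed with Gfap in reactive cells, was at 22.3 ± 2.92 and 19.7 ± 4.04 CPM (log2 fold change -0.18 ± 0.17, SE). The first 3 by unadjusted p were Gbp2 at -0.65 ± 0.27, Cp at -0.26 ± 0.17 and B3gnt5 at -0.35 ± 0.25, each lower under stress.

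For Ntsr2, the 4 other genes of the neurotensin system split into 2 lower and 2 higher. The ligand gene Nts was at -0.26 ± 0.46, the other receptor Ntsr1 at -0.01 ± 0.13 and the sorting receptor Sort1 at 0.14 ± 0.11 (log2 fold change ± SE). Of 12 genes listed with S100b, 6 were tested and 5 were lower (median -0.11), with S100pbp, which encodes a binding partner and no S100 protein, at -0.18 ± 0.11, S100a16 at -0.10 ± 0.11 and S100a13 at -0.11 ± 0.16. Of 25 genes of glycolysis and lactate transport 10 were lower and 15 higher (median 0.02), with Slc2a1 at -0.23 ± 0.10 and the lactate transporter gene Slc16a7 at 0.24 ± 0.14. Slc2a1 is also a member of the endothelial list, and Folr1 of the folate genes is also one of the choroid plexus list. Of 17 tested folate genes 10 were lower and 7 higher (median -0.02), with Mthfd2 at -0.38 ± 0.20, Tyms at 0.21 ± 0.23 and Aldh1l2, the mitochondrial counterpart of Aldh1l1, at 0.14 ± 0.24. With 1 library left out the S100 median ran up to -0.0023 (without stress 1) and the folate median from -0.083 (without stress 2) to 0.047 (without stress 3). None of these genes passed the adjusted threshold.

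Other cell types were read from their own marker lists. Basolateral amygdala neuron markers, Slc17a7 and Rspo2 among them, were present in every library, with 8 of 8 higher under stress and summed levels of 2154 to 2823 CPM in control mice and 2608 to 2972 CPM in stressed mice. Their median log2 fold change was 0.17, but without stress 1 only 4 of 8 were higher (median 0.040) and without control 1 only 5 (median 0.078). Without both, 2 were higher and 6 lower, with a median of -0.038. Pan-neuronal markers ran from 8035 to 8759 CPM and from 8229 to 9335 CPM. The 33 astrocyte markers summed to 10743 to 11108 CPM in control mice and 10087 to 10865 CPM in stressed mice. Microglial markers were lower in 9 of 12 and endothelial markers in 8 of 10, with medians of -0.02 and -0.17. Without control 1 or without stress 2, 6 of the 12 microglial markers were lower. Oligodendrocyte precursor markers were lower in 5 of 8 (median -0.07). Striatal and central amygdala markers were lower in 13 of 13 (median -0.99, 276 to 1010 CPM under stress against 909 to 1851 CPM). Their median was -0.58 without control 1 and -0.57 without stress 1, each with 13 of 13 lower, and -0.22 without both, with 10 of 13 lower. Choroid plexus and ependymal markers were lower in 12 of 12 (median -0.45, 23.8 to 6177 CPM against 54.8 to 4335 CPM), but 9 of 12 were higher without control 2 or without stress 1, and 8 without stress 3.

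No marker of these cell type lists was at 0 in all libraries, and the part of tissue content in the values of the 8 genes was not tested. Control 1 and stress 1 stood furthest apart in striatal and oligodendrocyte markers. Without both, the log2 fold change of Gja1 was -0.22 and that of Ntsr2 -0.28. Without the 3 libraries with most Ttr they were -0.21 and -0.26, with control 3 as the only control. In that last fit Aqp4 went from -0.23 to -0.01 and Gfap from -0.22 to 0.10, while Aldh1l1 went from -0.09 to -0.15.

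**Figure D5:**
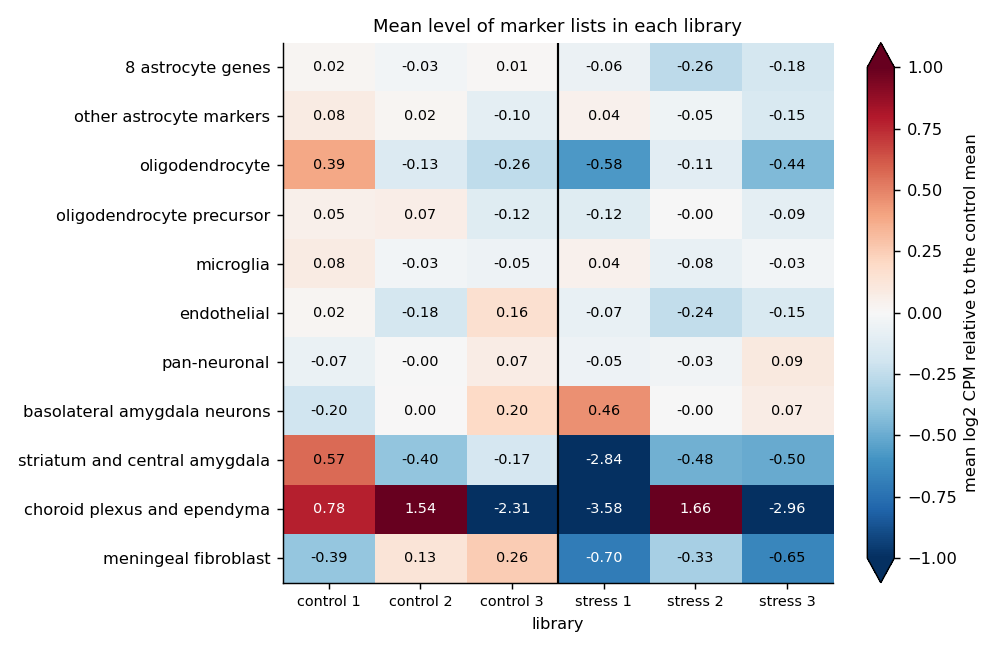
Mean log2 CPM of each marker list in each library relative to the mean of the controls (colour, cut off at 1 in either direction, with the value printed; the line parts control from stress). The rows of the 8 genes and of the other astrocyte markers stay between -0.26 and 0.08, while choroid plexus and ependymal markers run from -3.58 to 1.66.

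Genes whose profile was most like that of the 8 genes were ranked by Pearson correlation of log2 CPM over the 6 libraries among 10239 other genes with a mean of at least 10 CPM. The nearest to the mean of the 8 were Tmem259 (r = 0.993), Mul1 (0.982), Zcchc24 (0.966), Ddx41 (0.964) and Ppp2r3d (0.962). The nearest to Gja1 alone were Plekhg1 (r = 0.996), the astrocyte marker Ndrg2 (0.986), Laptm5 (0.980), Idua (0.975) and Pfkfb3 (0.975). These values share libraries, scaling and group with the profiles, rest on 6 points and are the highest of many, so they are given as a description. Ndrg2 itself was at 584 ± 17.98 CPM in control and 527 ± 9.14 CPM in stressed mice, a log2 fold change of -0.15 ± 0.06 (SE).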

How the data were processed

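Libraries of basolateral amygdala RNA from 3 control and 3 stressed mice were grouped by their titles. The authors deposited 1 table per library of raw, whole-number counts for each gene symbol, not normalized. Per the submitters' processing notes, the build was mm39 and the tools were STAR 2.7.7a, HTSeq 0.13.5, FastQC 0.12.1 and edgeR 3.42.4, with no roles. The sources used here give neither annotation nor strand setting. Overlapping and antisense genes can therefore not be told apart. Reads assigned to no gene (53.0 to 57.4%), to several places (6.97 to 8.16%) or ambiguously (0.162 to 0.194%) were kept out.

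The fit used edgeR 4.0.16 in R 4.3.3: filterByExpr (minimum count 10, minimum total 15), TMM (factors 0.983 to 1.02), robust quasi-likelihood F test of stress minus control, Benjamini-Hochberg adjustment over all 14739 genes, threshold 0.05. SEs were derived from the F statistic, and 95% intervals from the t distribution. CPM uses TMM-scaled library sizes; log2 CPM has a prior count of 2. Alternatives used DESeq2 1.42.0, limma 3.58.1, other scalings, no filter, the replicate number as a block and libraries left out. The procedure was tested on simulated counts. The labels state no pairing by number. In their deviations from group means the same-numbered libraries of the 2 groups correlated at -0.32, 0.53 and 0.28. These values cannot settle whether the numbers mark pairs, as libraries may be alike for other reasons. The lowest chi-square per gene between libraries was 2.95, for control 2 and stress 2, so no 2 libraries agreed within sampling noise.

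The genes and lists were chosen with earlier results of these data known. Named beside the 8 genes were the 3 genes of each list with the smallest unadjusted p, connexin and astrocyte genes fixed by name, and the 5 most similar profiles; for lists of other cell types summed levels stand in place of genes. Some genes that this rule takes are not reported here.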

Additional observations from a re-analysis of the deposited data

How the results depend on the processing

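The count of the 8 genes past the threshold was 0 in the quasi-likelihood test and in each of the 17 alternatives, where the smallest adjusted p of any of them was 0.761 (edgeR, without stress 2). At an unadjusted p under 0.05 there were 2. Of the 8, 5 kept their direction in all 17 alternatives: Gja1, Ntsr2, Aqp4, S100b and Aldh1l1. Gjb6 ran from -0.29 to 0.077 with 1 library left out, turning above 0 without control 3 and without stress 2 (0.048), Gfap to 0.10 without the 3 libraries high in Ttr, and Aldoc, which ran from -0.0046 to 0.069 with 1 library left out, to -0.0046 without stress 1 and -0.027 without control 1 and stress 1. The median of the 8 stayed between -0.23 and -0.14. Whether same-numbered libraries are pairs is not known. With the replicate number as a block the count of the 8 past the threshold was 0 and Gja1 stood at -0.25.

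Over all genes the count was 0, but 2 with DESeq2, 4 with edgeR's likelihood ratio test and 0 to 1 with 1 library left out. Leaving out 1 library at a time moved the median of the other connexins between -0.40 and -0.14, of endothelial markers between -0.31 and -0.093, of striatal markers between -1.28 and -0.57, of basolateral amygdala neuron markers between 0.040 and 0.34 and of choroid plexus markers between -3.80 and 0.37. Without control 1 and stress 1 the medians were -0.13 for the other connexins, 0.021 for the S100 genes and -0.039 for oligodendrocyte markers. Without the 3 libraries high in Ttr, where control 3 is the only control and is assumed to vary like the stress group, they were -0.24 for the other connexins, 0.088 for microglia, -0.34 for endothelial and -1.16 for meningeal markers. The causes of these moves were not tested. Against the endfoot list in place of the astrocyte markers, the relative difference was -0.12 for Gja1 and for Ntsr2. On that scale the groups overlapped for both genes, with stress 1 above control 2. The mean of the endfoot list itself ran from -0.36 in stress 3 to 0.19 in stress 2, relative to the control mean. That list holds Trpv4, at 0.205 to 12.9 CPM and high in the libraries with most Ttr. Depth was alike in the 6 libraries, and the number of mice limits the precision.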
